A study of Mus musculus with 20 samples.

Results

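Voltage-gated calcium channel alpha-1 subunits are the pore-forming proteins through which neurons admit calcium when the membrane depolarizes. The 8 genes described here, Cacna1a, Cacna1b, Cacna1c, Cacna1d, Cacna1e, Cacna1g, Cacna1h and Cacna1i, were taken by gene symbol from both deposited count tables, which share 17148 genes, and all 8 were found and passed the filter on low counts in every comparison. RNA came from frontal cortex and hippocampus of wild-type (Ncs1+/+) mice and of Ncs1-/- mice, which lack an intact gene for neuronal calcium sensor 1, all on the C57Bl6/J background. The 20 libraries form 4 groups of 5, with genotype and region as the labelled differences. The sources used here give no age, sex or deleted exons. No label ties the libraries of a group to separate animals, so a p-value here measures the spread from sample to sample, part of which may be technical. Each region has its own table and its own lane code in the labels, so region, lane and table cannot be told apart.

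The genes fall into 3 subfamilies. Cacna1c and Cacna1d encode the L-type (Cav1) pores, which sit largely on cell bodies and dendrites and couple calcium entry to transcription. The Cacna1c pore opens at strong depolarization and the Cacna1d pore at more negative voltages. Cacna1a (P/Q-type), Cacna1b (N-type) and Cacna1e (R-type) encode the Cav2 pores, of which the P/Q and N types trigger transmitter release at nerve terminals. Cacna1g, Cacna1h and Cacna1i encode the T-type (Cav3) pores, which open near the resting potential and support burst firing. Neuronal calcium sensor 1 is an EF-hand protein that is known to modulate calcium channels.

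The subfamilies can be seen in the sequence of the pore itself. The lines below show 27 bases of each coding sequence around the selectivity filter of the fourth repeat, 5′ to 3′, from GENCODE transcripts of release M21. Capitals mark the filter codon, which encodes a glutamate in the L-type and Cav2 genes and an aspartate in the T-type genes.
Cacna1c: tgtgccaccggaGAGgcctggcaggac
Cacna1d: tgtgcaacagggGAAgcctggcaggag
Cacna1a: agcgccacaggaGAAgcgtggcacaac
Cacna1b: agtgccactgggGAGgcctggcatgag
Cacna1e: agtgccacggggGAGgcttggcaggag
Cacna1g: gtctccactggtGACaactggaatggt
Cacna1h: gtgtccactgggGACaactggaatggg
Cacna1i: gtctccacaggcGATaactggaatggg
The codon lies between 65.4% (Cacna1d) and 76.8% (Cacna1h) of the way along the coding sequence. Aligned coding bases were 71.3% identical between Cacna1c and Cacna1d, 68.6% to 69.9% within the Cav2 genes and 68.8% to 70.5% within the T-type genes. Between subfamilies the identity was 53.8% to 62.1%. Even the closest members shared few identical stretches: of all stretches of 50 bases in their transcripts, Cacna1i shared 20 with other members and Cacna1g 19, Cacna1h shared 1, and the other 5 genes shared 0.

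The genes are scattered over 8 chromosomes of mm10. Cacna1c lies at chr6:118587240-119196410 and Cacna1d at chr14:30039941-30491157, both on the minus strand. Cacna1a lies at chr8:84415364-84640250 on the plus strand, Cacna1b at chr2:24603889-24763153 and Cacna1e at chr1:154392519-154725921, both on the minus strand. Cacna1g lies at chr11:94408391-94474199 and Cacna1h at chr17:25374287-25433784, both on the minus strand, and Cacna1i at chr15:80287238-80398293 on the plus strand. Cacna1b shares chromosome 2 with Ncs1, at a distance of 6.48 Mb. The transcripts are long: the union of annotated exons ran from 9.76 kb in Cacna1h to 21.2 kb in Cacna1c and 25.2 kb in Cacna1e, which put the 8 genes at the 89.4th to the 99.8th percentile of length among genes tested in cortex. On the opposite strand, Chdh covers 4.67% of the Cacna1d exons, Gm16183 3.81% of the Cacna1a exons and Tpsg1 1.62% of the Cacna1h exons, and no source used here says whether counting used strand. Chdh, a mitochondrial choline enzyme, ranged from 4.43 to 12.5 CPM over the 20 libraries.

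Libraries held 16.6 M to 34.6 M counts (median 21.0 M), and each member had between 808 and 14500 counts in a library. Levels are CPM (counts scaled to a common library size) after TMM scaling over the 20 libraries. Ncs1 itself, which checks the genotype labels, averaged 369 ± 18.1 CPM in wild-type and 259 ± 3.34 CPM in Ncs1-/- cortex (SD, n = 5 each), and 439.9 ± 17.6 and 299 ± 21.6 CPM in hippocampus. No Ncs1-/- library reached the lowest wild-type library of its region in either tissue. Summed choroid plexus markers (6 genes) ranged from 27.6 to 2297 CPM within wild-type hippocampus and from 33.1 to 3554 CPM within Ncs1-/- hippocampus, with the high values in single libraries. Summed striatal markers (8 genes) were at 627 to 1195 CPM in cortex libraries and 89.2 to 132.9 CPM in hippocampus. Cortical layer markers (6 of 7 listed) summed to 447 to 539.5 CPM in cortex and 183 to 244 CPM in hippocampus, and hippocampal field markers (7 genes) to 137 to 200.1 and 482.5 to 747 CPM, with Dsp, a marker of dentate granule cells, under 0.5 CPM in each cortex library.

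All 8 genes were expressed in every library. In CPM, Cacna1e had the highest mean in each group, and the lowest mean was that of Cacna1h in both cortex groups, of Cacna1d in wild-type hippocampus and of Cacna1g in Ncs1-/- hippocampus. CPM favours long transcripts, so genes are compared with each other per kilobase of exon. On that scale wild-type cortex was led by Cacna1a at 16.2 ± 1.2 CPM per kb, followed by Cacna1b at 14.4 ± 1.46, Cacna1i at 12.7 ± 0.869 and Cacna1e at 10.9 ± 1.48 (SD, n = 5). Cacna1g followed at 8.53 ± 0.881, Cacna1h at 5.74 ± 0.745, Cacna1c at 5.21 ± 0.473 and Cacna1d at 4.67 ± 0.535 CPM per kb. Of neighbours in this order, only Cacna1g and Cacna1h had ranges that did not overlap across libraries. Within single libraries, Cacna1a was above Cacna1b and Cacna1h above Cacna1c in 4 of 5, and each other pair of neighbours kept this order in 5 of 5.

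Wild-type hippocampus had another order. Cacna1e led at 13.9 ± 2.84 CPM per kb, with Cacna1b at 12.6 ± 1.34, Cacna1a at 12.1 ± 1.34 and Cacna1h at 11.9 ± 2.23 (SD, n = 5). The ranges of these 4 overlapped, and neighbours among them kept this order in only 3 or 4 of the 5 libraries, so their order is not resolved. Cacna1i followed at 7.74 ± 0.613, below each Cacna1h value, then Cacna1c at 6.57 ± 0.881, Cacna1g at 5.24 ± 0.393 and, below the range of Cacna1g, Cacna1d at 3.81 ± 0.486 CPM per kb. Cacna1d, the L-type pore that opens at more negative voltages than Cacna1c, was thus last in both wild-type regions. In Ncs1-/- libraries the order in hippocampus was the same as in wild type. In Ncs1-/- cortex Cacna1b (15.9 ± 1.32) and Cacna1a (15.8 ± 0.950) stood side by side above Cacna1e (13.3 ± 1.10) and Cacna1i (13.0 ± 0.692), with Cacna1g, Cacna1h, Cacna1c and Cacna1d again in the lower places. With the longest transcript as the length in place of all exons, Cacna1a and Cacna1d kept the first and last places in wild-type cortex and Cacna1e and Cacna1d in wild-type hippocampus, while Cacna1e moved from the fourth to the second place in wild-type cortex.

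**Figure D1:**
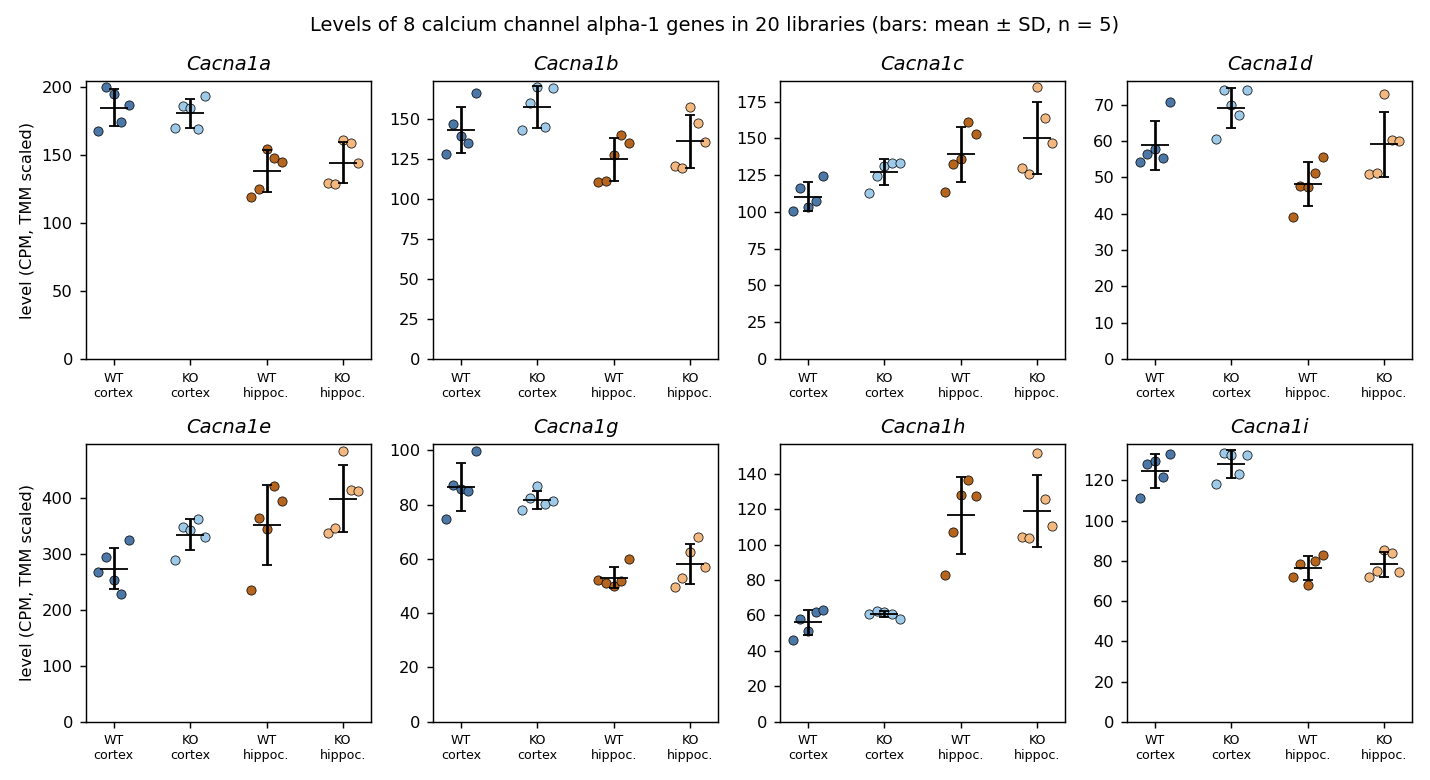
Level of each of the 8 genes (vertical axis, CPM after TMM scaling, starting at 0) in the 5 libraries of each group (points, in order of replicate number), with bars for the mean and SD; WT is wild type and KO is Ncs1-/-. Cacna1h is higher in hippocampus than in cortex in both genotypes, Cacna1g, Cacna1i and Cacna1a are lower in hippocampus without overlap, and the genotypes overlap for each gene within a region.

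Regions differed first of all in the T-type genes. Cacna1h was higher and Cacna1g and Cacna1i were lower in hippocampus than in cortex, in both genotypes. In wild type, 6 of the 8 members passed an adjusted p of 0.05 in edgeR's quasi-likelihood test, 2 higher in hippocampus and 4 lower, where 39.5% of the 14849 tested genes passed. Among Ncs1-/- libraries 5 of 8 passed, 2 higher and 3 lower, where 38.8% of 15032 genes passed. Over all genes, 18.8% were called higher and 20.7% lower in wild-type hippocampus, and 19.2% and 19.6% in Ncs1-/- hippocampus, so a call between these tissues is common. These fits have no replicate block. With the replicate number as a block in wild type, given below, all 8 members passed, and more of all genes did.

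Cacna1h, the T-type pore known from dendrites and from sensory and hippocampal neurons, was at 45.9, 58.0, 51.4, 62.0 and 63.0 CPM in the 5 wild-type cortex libraries and at 83.0, 107, 128, 137 and 128 CPM in the wild-type hippocampus libraries. Each hippocampus library lay above each cortex library, with the first hippocampus library well below the other 4. The fold change was 2.07 (log2 1.05, SE 0.13, adjusted p = 2.32e-05 in edgeR, n = 5 per group). The Ncs1-/- cortex libraries were close together at 61.0, 62.3, 61.9, 60.9 and 58.3 CPM, and the hippocampus libraries were at 104, 104, 152, 126 and 111 CPM. Again the regions did not overlap, and the fold change was 1.96 (log2 0.97, SE 0.09, adjusted p = 1.6e-06 in edgeR). Of all tested genes, 93.5% in wild type and 92.4% in Ncs1-/- libraries had a smaller or equal absolute log2 fold change between regions.

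Cacna1i, a T-type pore with slow kinetics, was at 111, 128, 129.6, 122 and 133 CPM in wild-type cortex and at 72.0, 78.3, 68.2, 80.2 and 82.9 CPM in wild-type hippocampus. All hippocampus libraries lay below all cortex libraries. The log2 fold change was -0.72 (SE 0.06, adjusted p = 1.58e-06 in edgeR), a level 1.65 times higher in cortex. Ncs1-/- libraries gave -0.71 (SE 0.06, adjusted p = 3.39e-07), with 118 to 133 CPM in cortex and 71.9 to 85.6 CPM in hippocampus, again without overlap.

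Cacna1g, the T-type pore best known from thalamic relay neurons, was at 74.8, 87.1, 85.6, 85.1 and 99.9 CPM in wild-type cortex and at 52.1, 51.2, 50.1, 52.0 and 60.1 CPM in wild-type hippocampus. The groups were separate, and the fifth library was the highest of its group in both regions. On the log2 scale the difference was -0.71 (SE 0.07, adjusted p = 5.14e-06 in edgeR). Between Ncs1-/- libraries it was -0.49 (SE 0.07, adjusted p = 0.000144), with cortex at 77.9 to 86.9 CPM and hippocampus at 49.8 to 68.2 CPM. The thalamic markers fixed for these libraries (5 genes) summed to 199 to 249 CPM in cortex and 123 to 158 CPM in hippocampus, while gene by gene 3 of the 5 had a positive log2 fold change in wild type (median 0.17) and 2 of 5 in Ncs1-/- libraries (median -0.01), so the list went both ways. The part of these markers in the Cacna1g result was not tested.

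Among the Cav2 genes, Cacna1a separated the regions and Cacna1b and Cacna1e did so less clearly. Cacna1a was at 168, 201, 195, 174 and 187 CPM in wild-type cortex and at 119.5, 125, 155, 148 and 145 CPM in wild-type hippocampus. No hippocampus library reached a cortex library. Its log2 fold change was -0.43 (SE 0.08, adjusted p = 0.000535 in edgeR), and -0.32 (SE 0.07, adjusted p = 0.00204) in Ncs1-/- libraries, where 169 to 194 CPM in cortex stood against 129 to 161 CPM in hippocampus, also without overlap. Groups that did not overlap with hippocampus lower made up 14.8% of tested genes in wild type and 14.9% in Ncs1-/- libraries, and 3 of the 8 members, Cacna1a, Cacna1g and Cacna1i, were among them in both. With hippocampus higher the shares were 14.5% and 14.7%, and 1 of 8 members, Cacna1h, was among them.

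Cacna1b had the smallest estimate between regions, a log2 fold change of -0.21 in both genotypes (SE 0.08 each). Its 95% interval was -0.38 to -0.03 in wild type and -0.38 to -0.04 in Ncs1-/- libraries. With no replicate block it missed the threshold, with adjusted p = 0.0604 in wild type and 0.0535 in Ncs1-/- libraries in edgeR. Its wild-type mean was 143 ± 14.5 CPM for cortex and 125 ± 13.4 CPM for hippocampus (SD, n = 5 each). Cacna1e went the other way, with 268, 295, 253, 229 and 325 CPM in wild-type cortex and 235, 364, 344, 421 and 395 CPM in wild-type hippocampus. The first hippocampus library lay inside the cortex range and the other 4 above it. The log2 fold change was 0.35 (SE 0.14, adjusted p = 0.0572), and 0.25 (SE 0.09, adjusted p = 0.0411) in Ncs1-/- libraries. With the replicate number as a block, given below, Cacna1b and Cacna1e passed in wild type. The Ncs1-/- call for Cacna1e was lost without any 1 of 7 of the 10 libraries (cortex replicates 1, 2, 3 and 5 and hippocampus replicates 3, 4 and 5), with adjusted p between 0.0623 and 0.0873.

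Both L-type genes differed between regions in opposite directions. Cacna1c, the main L-type pore of forebrain neurons, was at 100.6, 116.5, 103, 107 and 125 CPM in wild-type cortex and at 113, 132, 136, 161 and 153 CPM in wild-type hippocampus. The ranges overlapped through the first hippocampus library. The log2 fold change was 0.32 (SE 0.09, adjusted p = 0.0109 in edgeR). Cacna1d was at 54.1, 56.5, 57.8, 55.2 and 70.7 CPM in wild-type cortex and at 39.0, 47.5, 47.3, 51.1 and 55.7 CPM in wild-type hippocampus. Here the fifth hippocampus library lay within the cortex range, and the log2 fold change was -0.30 (SE 0.09, adjusted p = 0.0215). In Ncs1-/- libraries the log2 fold changes kept their signs at 0.24 for Cacna1c (SE 0.09, adjusted p = 0.0564) and -0.23 for Cacna1d (SE 0.09, adjusted p = 0.0664), neither of which passed.

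Same-numbered wild-type libraries of the 2 regions deviated together, so the region comparison in wild type was also fitted with the replicate number as a block. All 8 members then passed, with Cacna1b at -0.20 (adjusted p = 0.0227 in edgeR) and Cacna1e at 0.34 (adjusted p = 0.0359) joining the other 6. The number of all genes called went from 5861 to 6808. Taking the length trend off each library (a lowess of log2 level on log exonic length) also moved Cacna1e past the threshold in wild type (0.50, adjusted p = 0.000589) and Cacna1c in Ncs1-/- libraries (0.40, adjusted p = 2.56e-05). In bulk tissue a lower level can mean fewer cells of a type or less RNA per cell, and these cannot be told apart. Striatal markers, present in the cortex dissections at 627 to 1195 CPM, and interneuron markers (6 genes, 893 to 1134 CPM in cortex and 714 to 826 CPM in hippocampus) moved with region as well, and their part in the region results was not tested.

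**Figure D2:**
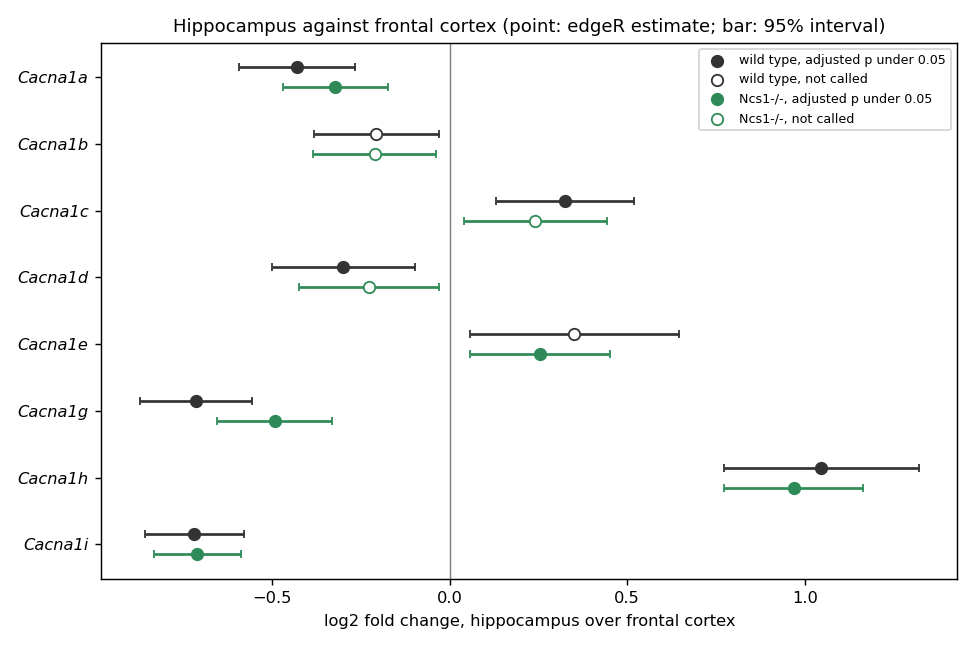
Log2 fold change of hippocampus over frontal cortex for each gene (horizontal axis), with 95% intervals from edgeR, in wild type (dark) and Ncs1-/- libraries (green). Filled points passed an adjusted p of 0.05 in the fits with no replicate block. Cacna1h stands at 1.05 and 0.97 and Cacna1g and Cacna1i between -0.72 and -0.49, and the 2 genotypes give the same sign for each gene.

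The summed level of the 8 genes was 78.3 ± 6.43 CPM per kb in wild-type cortex and 73.9 ± 8.99 CPM per kb in wild-type hippocampus (SD, n = 5), with overlapping ranges of 70.6 to 87.3 and 60.3 to 82.6. The shares of the larger subfamilies lay close together: Cav2 genes made up 53.0% ± 1.29 of the sum in wild-type cortex and 52.2% ± 0.824 in hippocampus, and T-type genes 34.4% ± 1.26 and 33.8% ± 0.677. L-type genes made up 12.6% ± 0.400 and 14.0% ± 0.322, with ranges of 12.2% to 13.2% and 13.5% to 14.4% that did not overlap. The members that filled each share differed more. Within the T-type share, Cacna1h went from 7.33% ± 0.736 in cortex to 16.04% ± 1.32 in hippocampus, while Cacna1i went from 16.2% ± 0.598 to 10.6% ± 1.15 and Cacna1g from 10.9% ± 0.395 to 7.16% ± 0.884. Within the Cav2 share, Cacna1a went from 20.8% ± 1.25 to 16.5% ± 1.16 and Cacna1e from 13.9% ± 1.23 to 18.7% ± 2.04, while Cacna1b was at 18.4% ± 0.445 and 17.0% ± 0.923. These shares are descriptions with no test. The Ncs1-/- libraries gave similar make-ups, with Cav2 at 53.7% ± 0.520 in cortex and 52.9% ± 0.704 in hippocampus and Cacna1h at 7.47% ± 0.459 and 15.3% ± 0.790.

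**Figure D3:**
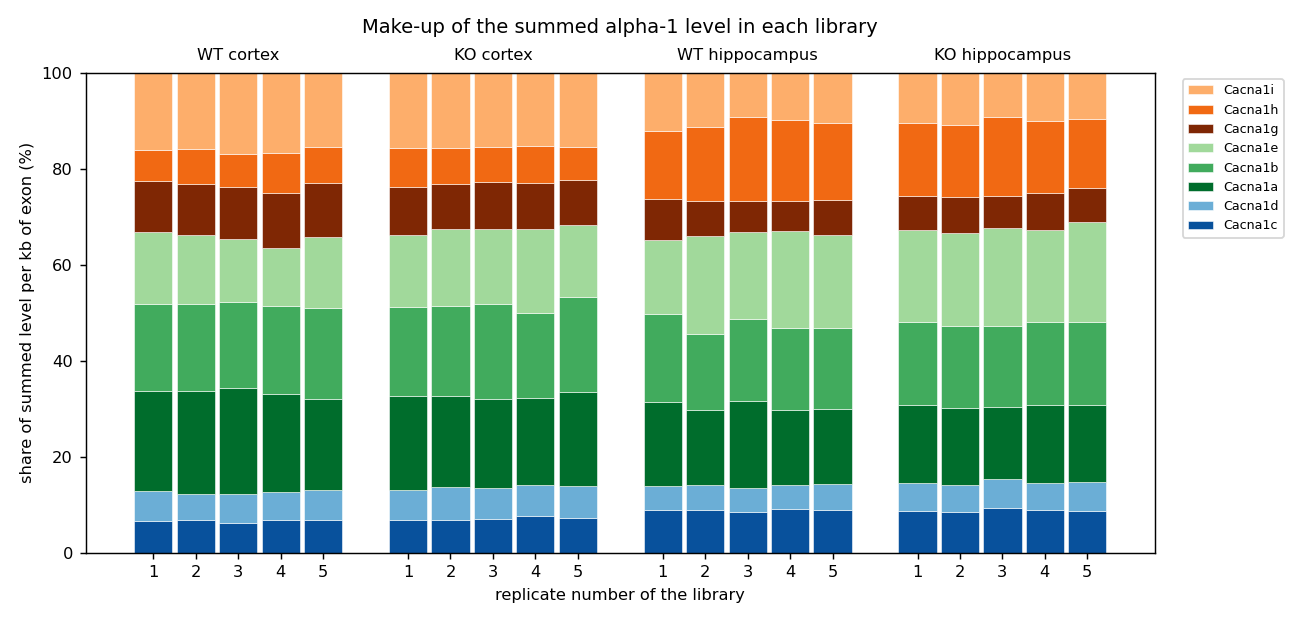
Share of each gene in the summed level per kb of exon (vertical axis, %, each bar adds to 100) in each of the 20 libraries, grouped by genotype and region, with L-type genes in blue, Cav2 genes in green and T-type genes in brown and orange. The Cacna1h band widens from 6.66% to 8.52% in wild-type cortex to 14.1% to 17.5% in wild-type hippocampus, while the green block lies between 50.9% and 54.4% of the bar throughout.

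The loss of intact Ncs1 was compared within each region, the comparison for which the series was made. No member passed in either region. In cortex 0 of 8 members and 4 of 14823 tested genes (0.027%) passed an adjusted p of 0.05 in edgeR's quasi-likelihood test, and in hippocampus 0 of 8 and 4 of 15042 (0.0266%). At an unadjusted p under 0.05, 3 of 8 members (Cacna1c, Cacna1d and Cacna1e) were reached in cortex, where 14.8% of genes were, and 1 of 8 (Cacna1d) in hippocampus, where 3.78% were. DESeq2 called 157 genes in cortex, among them 1 member, Cacna1e (log2 fold change 0.29, adjusted p = 0.0494), and 0 members in hippocampus. The members' median log2 fold change was 0.13 in cortex and 0.13 in hippocampus, beside medians of 0.002 and 0.007 over all tested genes. Ncs1-/- estimates were positive for 6 of 8 members in cortex, where 50.6% of tested genes were. In hippocampus they were positive for 8 of 8, where 53.1% of genes were. The members varied together within groups (median r of 0.74 between pairs), so these signs are not independent of each other. None of the members had groups without overlap in either region, where 2.28% and 0.452% of genes had.

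In cortex the R-type gene Cacna1e had the largest estimate. Its 5 wild-type libraries were at 268, 295, 253, 229 and 325 CPM and its Ncs1-/- libraries at 289, 347.5, 343.5, 362 and 331 CPM. Of the Ncs1-/- libraries 4 lay above every wild-type library and the first lay inside their range. The log2 fold change was 0.29 (SE 0.08, 95% interval 0.11 to 0.47), with adjusted p = 0.23 in edgeR. Cacna1d followed at 0.24 (SE 0.07, adjusted p = 0.235), with wild-type libraries at 54.1, 56.5, 57.8, 55.2 and 70.7 CPM and Ncs1-/- libraries at 60.6, 74.0, 69.9, 67.2 and 73.9 CPM. The fifth wild-type library stood far above the other 4 and inside the Ncs1-/- range.

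Cacna1c was at 100.6, 116.5, 103, 107 and 125 CPM in wild-type cortex and at 113, 125, 131.5, 133 and 133 CPM in Ncs1-/- cortex, a log2 fold change of 0.21 (SE 0.06, adjusted p = 0.235 in edgeR). Of the Ncs1-/- libraries 3 lay above every wild-type library, and the first and second lay below the fifth wild-type library. Leaving out the fifth wild-type cortex library moved the number of genes called in cortex from 4 to 563, and the members called from 0 to 3. Cacna1c then stood at 0.25 (adjusted p = 0.0366), Cacna1d at 0.31 (adjusted p = 0.0243) and Cacna1e at 0.36 (adjusted p = 0.0294). That library had all 8 members above its group mean. The other cortex estimates were 0.14 for Cacna1b, 0.12 for Cacna1h, 0.04 for Cacna1i, -0.03 for Cacna1a and -0.08 for Cacna1g, each with a 95% interval that includes 0. Their upper bounds reached 0.29 for Cacna1b and 0.28 for Cacna1h, so differences of that size are not excluded.

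In hippocampus Cacna1d had the largest estimate. Its wild-type libraries were at 39.0, 47.5, 47.3, 51.1 and 55.7 CPM and its Ncs1-/- libraries at 50.9, 51.2, 73.0, 60.4 and 60.0 CPM. Of the Ncs1-/- libraries 3 lay above every wild-type library, and the third was the highest. The log2 fold change was 0.30 (SE 0.11, 95% interval 0.07 to 0.54, unadjusted p = 0.0163, adjusted p = 0.991 in edgeR). Cacna1e followed at 0.19 (SE 0.14), with wild-type libraries between 235 and 421 CPM and Ncs1-/- libraries between 338 and 484 CPM. Cacna1g stood at 0.14, Cacna1b at 0.13, Cacna1c at 0.12, Cacna1a at 0.07, Cacna1i at 0.05 and Cacna1h at 0.04, each with a 95% interval that includes 0.

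**Figure D4:**
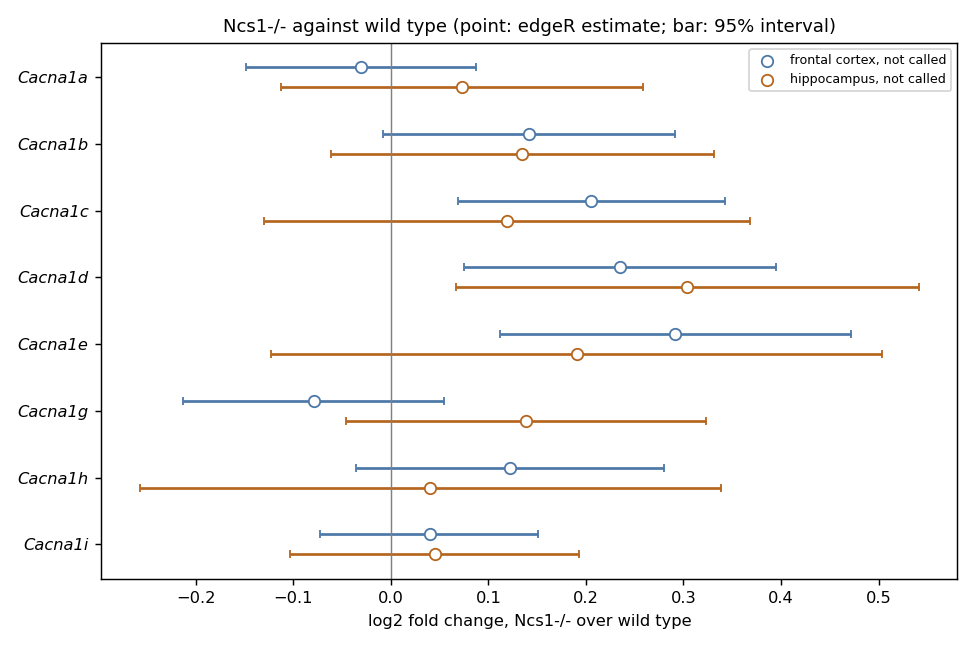
Log2 fold change of Ncs1-/- over wild type for each gene (horizontal axis), with 95% intervals from edgeR, in frontal cortex (blue) and hippocampus (brown); open points did not pass an adjusted p of 0.05. None of the estimates passed, the largest are Cacna1e at 0.29 in cortex and Cacna1d at 0.30 in hippocampus, and the intervals of most others include 0.

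Length moved with these estimates. Across all genes with a known length, the Ncs1-/- over wild-type log2 fold change correlated with log exonic length, with r = 0.22 in cortex (14558 genes) and r = 0.19 in hippocampus (14772 genes), genes of 1 fit not being independent of each other. Genes over 9.7 kb, as all 8 members are, had a median of 0.09 in cortex and 0.07 in hippocampus. With the trend taken off each library, the cortex estimates were 0.13 for Cacna1e, 0.15 for Cacna1d and 0.06 for Cacna1c, nearer to 0 than before, and Cacna1i went to -0.02. The unadjusted p in edgeR was then 0.0409 for Cacna1e, 0.0148 for Cacna1d and 0.154 for Cacna1c (adjusted p = 0.382, 0.32 and 0.544). The cortex estimates of Cacna1g and Cacna1a moved away from 0, to -0.14 (unadjusted p = 0.0103, adjusted p = 0.287 in edgeR) and -0.11 (unadjusted p = 0.0514, adjusted p = 0.399). In hippocampus Cacna1d went from 0.30 to 0.23 and Cacna1e from 0.19 to 0.06, while Cacna1c, Cacna1h and Cacna1i went to -0.0003, -0.01 and -0.0057. The SE of Cacna1d there went from 0.11 to 0.07, and its unadjusted p from 0.0163 to 0.00446 in edgeR (adjusted p = 0.994).

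Shares within a library cancel a shift of the same size in all members. They do not cancel a shift that changes with length, and a share can fall because another rises. In cortex the Cacna1g share was 10.4% to 11.3% in wild-type and 9.23% to 10.0% in Ncs1-/- libraries, which did not overlap. The Cacna1c share did not overlap either, at 6.29% to 6.79% and 6.83% to 7.66%. Nor did the whole L-type share, at 12.21% to 13.16% and 13.18% to 14.16%. With the longest transcript as length the Cacna1c shares overlapped, at 7.89% to 8.55% and 8.49% to 9.44%. The Cacna1e share was 12.2% to 15.03% and 14.9% to 17.5%. The Cacna1a share was 18.8% to 22.1% in wild type and 18.1% to 19.6% in Ncs1-/- libraries. In hippocampus the Cacna1d share was 4.90% to 5.45% in wild type and 5.57% to 6.15% in Ncs1-/- libraries, also without overlap. These were read off after the values were seen and carry no test, and how often shares of other genes separate was not tested. In Ncs1-/- cortex all 8 striatal markers had positive log2 fold changes (median 0.21) and all 5 excitatory neuron markers negative ones (median -0.15). Meningeal fibroblast markers were positive in 5 of 5 (median 0.33), choroid plexus markers in 4 of 4 tested (0.88) and astrocyte markers in 0 of 6 (-0.13). The choroid plexus sum in Ncs1-/- cortex was high in the first library only, at 251 CPM. It was 11.7 to 14.9 CPM in the others and 5.92 to 15.2 CPM in wild-type cortex. In Ncs1-/- hippocampus, excitatory neuron markers were positive in 0 of 5 (median -0.10), astrocyte markers in 0 of 6 (-0.09), choroid plexus (0.72) and oligodendrocyte markers (0.06) in 6 of 6 each, and thalamic markers in 5 of 5 (0.055). The other marker lists had genes on both sides of 0. None of the genes in these lists was called in either region, and their part in the member estimates was not tested.

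The genotype difference was also compared between regions. In the interaction over the 20 libraries 0 of 8 members and 0 of 15310 genes (0%) passed in edgeR. At an unadjusted p under 0.05 there were 0 members and 214 genes (1.4%), and DESeq2 called 1 gene, which was no member. Cacna1g came closest among the members: the log2 fold change in hippocampus exceeded that in cortex by 0.21 (SE 0.11, 95% interval -0.02 to 0.44, unadjusted p = 0.0677 in edgeR). For the other 7 the difference lay between -0.11 (Cacna1e) and 0.10 (Cacna1a). These intervals do not exclude a difference between regions, and for Cacna1e the interval of -0.48 to 0.26 includes both signs.

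The 8 genes varied together from library to library within groups. After the group means were taken off, all 28 pairs of members correlated positively over the 20 libraries, with r from 0.50 (Cacna1e and Cacna1g) to 0.89 (Cacna1b and Cacna1c) and a median of 0.74. Members of 1 subfamily were not set apart: Cacna1c and Cacna1d stood at 0.89, but Cacna1h with Cacna1i at 0.56 and Cacna1g with Cacna1h at 0.56. All 8 members were above their group mean in 5 of the 20 libraries, among them the third Ncs1-/- hippocampus library (median deviation 0.26 log2) and the fifth wild-type cortex library (0.20). None was above it in 4 libraries, with the first wild-type hippocampus library lowest (-0.24), and the remaining 11 libraries had members on both sides. These are descriptions, and depth, library and gene length are shared by the points.

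In the same libraries, the deviation of all genes from the group mean correlated with exonic length to an uneven degree. The correlation of a library's deviations with log length was 0.33 in the third Ncs1-/- hippocampus library and 0.27 in the fifth wild-type cortex library, and -0.24 in the first wild-type and -0.44 in the first Ncs1-/- hippocampus library. It was weaker, at 0.09, in the third Ncs1-/- cortex library, where all 8 members were above the mean. In the second Ncs1-/- hippocampus library, with 0 members above, it was -0.10. The fifth Ncs1-/- hippocampus library had 0.14 with a median member deviation of -0.007. The libraries with the highest choroid plexus sums were the second Ncs1-/- hippocampus library (3554 CPM, member deviation -0.19) and the fourth wild-type one (2297 CPM, 0.14). They were followed by the fourth Ncs1-/- hippocampus library (396 CPM, 0.12) and the first Ncs1-/- cortex library (251 CPM, -0.13). The part of choroid plexus RNA in the member deviations was not tested.

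**Figure D5:**
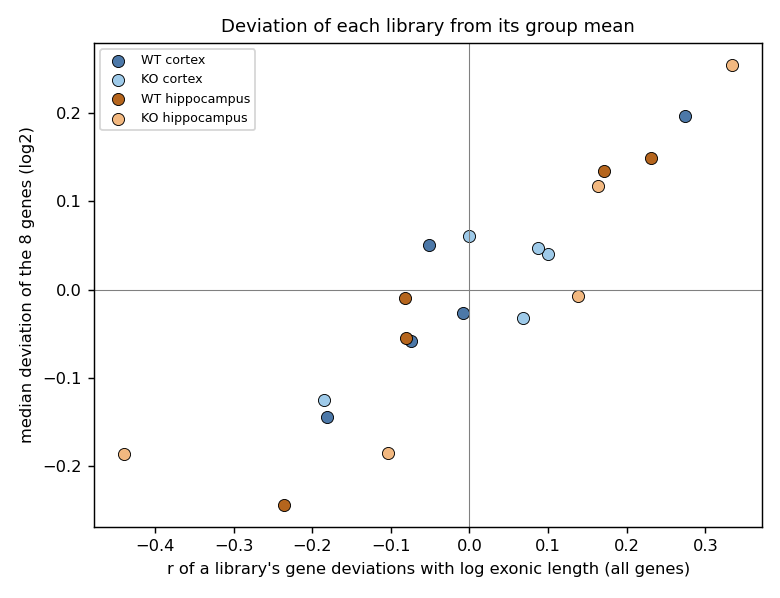
Each point is 1 of the 20 libraries, coloured by group; the horizontal axis is the correlation, across all genes, of the library's log2 deviation from its group mean with log exonic length, and the vertical axis is the median log2 deviation of the 8 channel genes. Libraries with a positive length correlation mostly sit above 0 and those with a negative one mostly below, from -0.24 to 0.26.

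Each member was also matched to the genes most like it from library to library. Among 9875 genes with at least 10 CPM on average, group means taken off, Cacna1a was closest to Unc13a (r = 0.96, 20 libraries), a priming factor for synaptic vesicles, and to Agtpbp1 (r = 0.91). Cacna1b was closest to Csmd2 and Trrap, and Cacna1e to Ino80d and Zfp609 (r between 0.92 and 0.94). Cacna1c was closest to Med12l and Kmt2d (r = 0.96 and 0.95), and Cacna1d to Tnrc6c and Tnik (r = 0.98 and 0.96). Cacna1g was closest to Myo9b and Setd1a, Cacna1h to Plxna4 and Dock11, and Cacna1i to Col19a1 and Eml6 (r between 0.87 and 0.93). Each partner was picked as highest over 9875 genes, so its r is high partly through the search, and no shared function was tested. The 16 partners had exonic lengths between 6.80 and 21.8 kb. Cacna1d had 86 genes with r over 0.9, Cacna1c 40 and Cacna1i 0.

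Auxiliary subunits and partners, taken as 7 lists, had no member that passed in either genotype comparison, and at least 2 in each list that passed between regions, where 39.5% of all genes passed in wild type and 38.8% in Ncs1-/- libraries. Of 5 alpha2delta genes, which raise the number of channels at the membrane, 3 passed in wild type (1 higher in hippocampus, 2 lower) and 4 in Ncs1-/- libraries. Cacna2d2, a partner of Cacna1a in interneurons and cerebellum, stood at -0.98 (SE 0.12, adjusted p = 2.32e-05 in edgeR, wild type), Cacna2d1 at -0.37 and Cachd1, an alpha2delta-like protein, at 1.66. Of 4 beta genes, which traffic and gate the high-voltage pores, 3 passed in each genotype. Cacnb4 had 487 ± 36.1 CPM in wild-type cortex and 211.5 ± 11.1 CPM in wild-type hippocampus (SD, n = 5), a log2 fold change of -1.21 (SE 0.06, adjusted p = 8.12e-09), beside -0.30 for Cacnb3 and 0.50 for Cacnb2.

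For the following lists too, the share of all genes that passed was 39.5% in wild type and 38.8% in Ncs1-/- libraries. Of 7 tested gamma subunits and AMPA receptor regulatory proteins, 5 passed in each genotype. Of these, 1 was higher in hippocampus (Cacng8 at 1.15 in wild type) and 4 were lower (Cacng3 at -1.03, Cacng4 at -0.75 and Cacng2 at -0.44 leading). These proteins act mostly on AMPA receptors rather than on calcium channels. Among RGK GTPases, which inhibit high-voltage channels, and Stac adaptors, which hold L-type channels at the membrane, Rem2 (0.84) and Stac (2.05) were higher and Stac2 (-0.60) lower in wild-type hippocampus, 3 of 6 tested in all. In Ncs1-/- libraries 5 of 6 passed. Of 6 calmodulin and calcium sensor genes 4 passed in each genotype, with Cabp1, a calmodulin-like regulator of Cav channels, at -1.16, Vsnl1 at -0.49 and Calm3 at 0.26 in wild type.

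The presynaptic anchors and release partners were mostly lower in hippocampus. Of 14 tested genes, 12 passed in each genotype, 11 lower in hippocampus and 1 higher, where 20.7% of all genes were called lower in wild type and 19.6% in Ncs1-/- libraries. Their median log2 fold change in wild type was -0.49, beside 0.007 over all genes and -0.25 over the 8 members. Stx1a, a SNARE protein that binds Cacna1a and Cacna1b, stood at -1.52 (SE 0.11, adjusted p = 2.1e-07 in edgeR), Syt2, a calcium sensor for release, at -1.27, and Rims1, which tethers the Cav2 channels to the active zone, at -0.75. The member higher in hippocampus was Erc1 at 0.25. Of the other channel genes listed, the skeletal muscle gene Cacna1s was detected at 0.619 to 1.25 CPM in wild-type cortex and 0.232 to 0.483 CPM in wild-type hippocampus (-1.32, adjusted p = 0.00439), and the retinal gene Cacna1f had at most 5 counts in a library and was not tested. Unc80, a subunit of the NALCN sodium leak channel, stood at -0.34, while Nalcn and Unc79 did not pass.

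In the genotype comparison in cortex, Cacnb2 stood at 0.16 (adjusted p = 0.288 in edgeR), Cacnb3 at -0.12 and Cacnb1 at -0.09. These 3 of the 4 beta genes had an unadjusted p under 0.05 in cortex, where 14.8% of all genes had one, and 0 of 4 in hippocampus, where 3.78% had. The cortex counts were 2 of 4 other channel genes, 2 of 6 calmodulin and sensor genes and 1 of 6 RGK and Stac genes. They were 1 of 14 presynaptic, 0 of 7 gamma and 0 of 5 alpha2delta genes. Unc80 (0.17, unadjusted p = 0.00281 in edgeR), Stac2 (-0.14, 0.00371) and Calm3 (-0.12, 0.00761) had a lower p than each beta gene. The alpha2delta genes had a median log2 fold change of 0.02 in cortex.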

How the data were processed

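The deposited tables, 1 per region, hold expected counts of each gene, made by the authors with STAR 2.7.3a and Partek on mm10, per the submitters' processing notes, from total RNA. The annotation, strand setting and filters of that counting are not stated. After rounding, all genes were fitted with edgeR 4.0.16 (R 4.3.3): filterByExpr, TMM scaling, quasi-likelihood tests, Benjamini-Hochberg adjustment over all tested genes at 0.05, with no replicate block. Genotypes were compared within each table and regions within each genotype over genes in both tables. Standard errors were derived from each F statistic. Exon lengths, transcripts and coding sequences (longest open reading frame) came from GENCODE M21 on the mm10 assembly. Lengths were known for 98.2% of tested genes. Methods were run on simulated counts, in which genes varied independently of each other and without a length trend. The outcome of that run is not given here. No pair of libraries of a group agreed within sampling noise (lowest chi-square per degree of freedom 3.45).

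The members, gene lists and tests were chosen with earlier results of these data known. Named were the 8 members, Ncs1, list genes passing in a genotype comparison, up to 3 list genes per direction with the largest fold change among those passing in both genotypes between regions, and the 2 genes most like each member. Of the genes this rule names, 1 is not reported here. Cacnb1, Cacna1f, Nalcn and Unc79 were named after their values were seen. Same-numbered wild-type libraries of the 2 regions correlated in their deviations from the group means at 0.14 to 0.63, each over 0.1, so the replicate number was taken as pairing them. The fourth of these pairs, at 0.14, was not the best match of its number. In the other comparisons same-numbered libraries correlated unevenly. Between genotypes the values ran from -0.145 to 0.279 in cortex and from 0.023 to 0.417 in hippocampus. Between regions in Ncs1-/- libraries they ran from -0.241 to 0.41. There the number was not taken as pairing the libraries, though some of them share variation. Alternatives were DESeq2 1.42.0, other scaling, no filter, a length correction, the replicate block, 1 fit of all libraries and each library left out.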

Additional observations from a re-analysis of the deposited data

Results flagged for a closer look

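Of 32 group levels of the 8 genes tested for a library standing apart (the gap to its nearest neighbour over the range of the group, against the critical value of 0.71 for 5 libraries), 2 did so. Chance gives about 1 in 20. Cacna1d stood apart in the fifth wild-type cortex library at 70.7 CPM, where the other 4 were at 54.1 to 57.8 CPM. Cacna1g stood apart in the fifth wild-type hippocampus library at 60.08 CPM, where the other 4 were at 50.1 to 52.1 CPM. In both libraries all 8 genes were above their group means, by a median of 0.20 and 0.15 log2.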

How the results depend on the processing

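In wild type, the region comparison kept the sign of each member and 6 to 8 members called under every alternative run. Among Ncs1-/- libraries the signs were kept too, with 4 to 6 called when 1 library was left out. With the replicate block 8 were called there (Cacna1b adjusted p = 0.0226, Cacna1c 0.0102 and Cacna1d 0.0295 in edgeR), although the second replicates correlated at -0.24, so the numbers were not taken as pairs. With the replicate block the genotype comparisons had 4 genes and 0 members called in each region, and the interaction 0 and 0.

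In cortex, between genotypes, DESeq2 called 157 genes and 1 member and a fit of all 20 libraries 7 genes. Leaving out 1 library gave 4 to 563 genes and 0 to 3 members, the highest without wild-type replicate 5; the cause was not tested. In the interaction DESeq2 called 1 gene, and leaving out 1 library gave 0 to 1, the 1 without Ncs1-/- cortex replicate 5.

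Signs turned for small estimates. With the length trend removed, Cacna1i was at -0.0217 in cortex, and in hippocampus Cacna1c was at -0.0003, Cacna1h at -0.0099 and Cacna1i at -0.0057. Leaving out 1 library gave -0.0636 to 0.0017 for Cacna1a in cortex and -0.0608 to 0.1064 for Cacna1h in hippocampus. In the interaction, Cacna1i was at 0.005 with RLE scaling, 0.0071 with total counts, 0.0054 in DESeq2 and 0.0166 with the length trend removed, and Cacna1b at 0.0007 with the trend removed. Leaving out 1 library gave -0.0737 to 0.0304 for Cacna1b, -0.021 to 0.1188 for Cacna1d and -0.0405 to 0.0361 for Cacna1i there.

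The Cav2 share was 55.97% in wild-type cortex and 55.06% in wild-type hippocampus with the longest transcript as length, and 52.69% to 53.49% and 51.95% to 52.45% with 1 library left out.

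With 5 libraries a group, the standard errors between genotypes were 0.05 to 0.08 log2 in cortex and 0.07 to 0.14 in hippocampus. Each member had at least 808 counts in a library, and how far depth limits the calls was not tested.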
